A study of Mus musculus with 40 samples.

Results

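Dense clusters of NCoR binding sites were examined in livers of fed control mice. NCoR is a corepressor, a protein that transcription factors bring to DNA to lower the activity of nearby genes. Members were selected on the positions of NCoR peaks alone. Peak centres were sorted along each chromosome, neighbours at most 10 kb apart were chained, and the peaks in chains of 5 or more were kept. Of 35138 NCoR peaks, 4860 (13.8%) fell into such chains, which formed 791 clusters. The other 30278 peaks were either isolated (13333 peaks) or in chains of 2 to 4 (16945 peaks).

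The study used chromatin immunoprecipitation followed by sequencing (ChIP-seq) in 40 samples of mouse liver in 18 groups. The 3 peak lists analysed here held 35138 NCoR peaks, 10654 SMRT peaks and 14462 HDAC3 peaks. All came from liver of male C57BL/6 mice that carried floxed Bcl6 alleles without Cre (Bcl6 fl/fl), so that BCL6 was intact, and that were fed standard chow freely. Each list was made from 3 libraries, which the study's methods describe as separate animals, and the labels name 1 same input library for all 3 proteins. Age is not given in the sources used here. The lists give 1 set of positions for the pooled animals, without peak heights or read counts, so that depth is unknown and no value per animal can be given. Intervals and p-values below cover counting error among peaks, and not the variation between mice.

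NCoR and SMRT are related scaffold proteins. Both bind the deacetylase HDAC3 and activate it, and HDAC3 removes acetyl groups from histones near the sites to which the complex is drawn. In hepatocytes the complex is recruited by nuclear receptors such as REV-ERBα, by HNF6 and by BCL6, and is known for restraining genes of lipid and glucose metabolism. Here a SMRT or HDAC3 partner means a peak of that protein whose centre lay within 200 bp of the NCoR peak centre.

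Most clusters were small. They held 5 to 15 NCoR peaks (median 6), with 566 clusters of 5 or 6 peaks, 195 of 7 to 9 and 30 of 10 or more. The distance from the first to the last centre ran from 6.46 to 84.1 kb (median 22.3 kb), and all clusters together spanned 18859 kb, or 0.712% of the known bases of the genome. The median gap between neighbours was 4636 bp. Of 4069 gaps, 375 were under 1 kb and 266 were over 9 kb. Because NCoR positions chose the members, these values are a description.

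**Figure D1:**
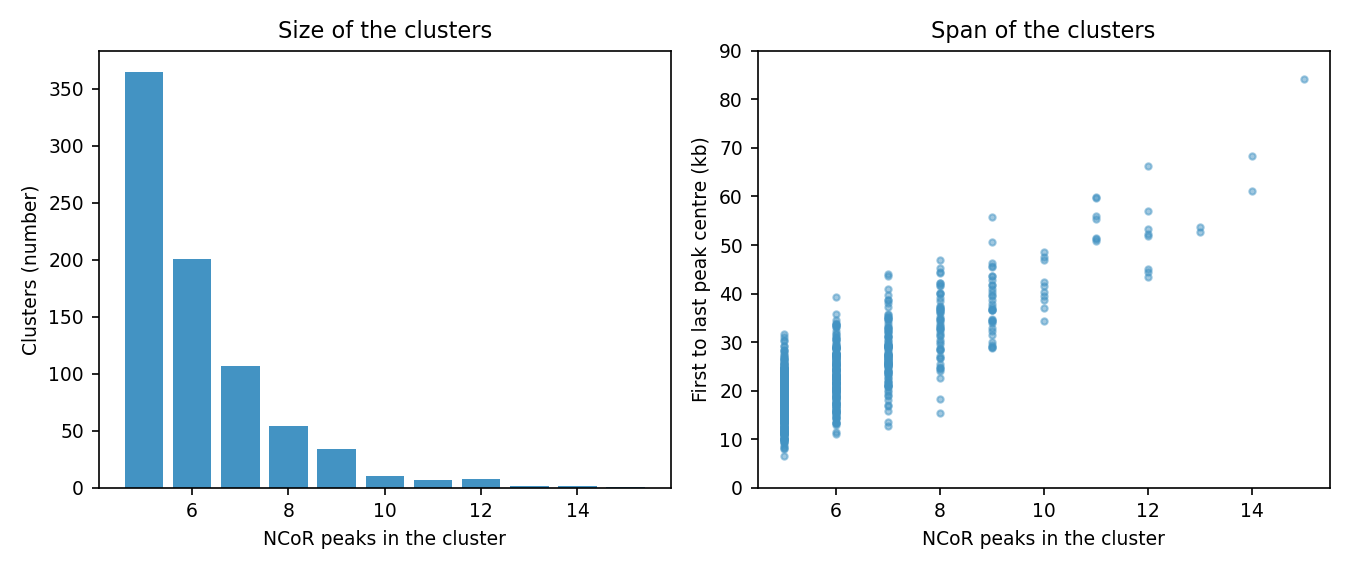
Size and span of the 791 NCoR clusters. The left panel shows the number of clusters (vertical axis) for each number of NCoR peaks (horizontal axis), and the right panel shows each cluster as 1 point, with its number of peaks and its span in kb. Clusters of 5 or 6 peaks make up 566 of the 791, and the longest span is 84.1 kb.

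The threshold left close neighbours on either side. Just inside it, the cluster at Aldh1a1 had a largest gap of 9968 bp, that at Cblb 9962 bp and that at Nedd9 9957 bp. Just outside it, a pair of chains of 4 near Tcim lay 10012 bp apart, and a chain of 4 at Angptl8 and another at Dock6 were separated by 10013 bp. In all, 96 chains of 4 had a further peak 10 to 11 kb away. Among clusters of 5 peaks the shortest, with Tab2 as its nearest gene, spanned 6.46 kb and the longest, at Cd81, spanned 31.6 kb. The shortest (chr10:8226745-8233430) lay outside Tab2, whose body ends at position 7956230 of that chromosome.

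Single peaks from 6 clusters are printed to show motif matches at clustered sites. In each cluster the window is that of the peak with both partners that matched the most kinds of motif, so these windows are richer in matches than most. Of 1537 clustered peaks with both partners, 759 (49.4%) held at least 1 match. In the cluster at Shb the printed peak was the only 1 of 6 with both partners that held any, and at Gpam it was the only 1 of 3. The windows are 200 bases around the peak centre, read from the RefSeq copy of GRCm38 (mm10) on the plus strand, with matches to the searched motifs in capitals. The first 3 belong to the 6 largest clusters and the last 3 to the clusters with the most peaks that had both partners. The window at Shb (chr4:45495894-45496093, intron of Shb, peak 9 of 15) held a ROR/REV-ERB half-site, a C/EBP match and a FOX match. That at Gpam (chr19:55139367-55139566, intergenic, at -12250 bp from the Gpam TSS, peak 10 of 14) held 2 C/EBP matches. That at Insr (chr8:3256622-3256821, intron of Insr, peak 12 of 13) held FOX and C/EBP matches. That at Scarb1 (chr5:125323211-125323410, intron of Scarb1, peak 8 of 11) held a C/EBP match and a ROR/REV-ERB half-site. That at Zmiz1 (chr14:25466584-25466783, intron of Zmiz1, peak 5 of 12) held an HNF4 half-site. That at Rab11fip4 (chr11:79757782-79757981, intergenic, at 166669 bp from the Rab11fip4 TSS, peak 3 of 9) held a C/EBP and a BCL6/STAT match. The windows chosen by the same rule in the clusters at Tgoln1, Ptpn1 and Mgll matched none of the 10 motifs.
Shb: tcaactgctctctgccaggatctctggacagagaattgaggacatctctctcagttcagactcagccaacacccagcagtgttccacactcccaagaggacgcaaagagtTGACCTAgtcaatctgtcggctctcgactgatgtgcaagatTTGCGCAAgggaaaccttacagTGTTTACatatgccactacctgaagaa
Gpam: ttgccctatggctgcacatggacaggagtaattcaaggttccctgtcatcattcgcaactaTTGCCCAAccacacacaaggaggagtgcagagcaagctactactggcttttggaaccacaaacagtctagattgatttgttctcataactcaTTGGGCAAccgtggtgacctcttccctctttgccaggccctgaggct
Insr: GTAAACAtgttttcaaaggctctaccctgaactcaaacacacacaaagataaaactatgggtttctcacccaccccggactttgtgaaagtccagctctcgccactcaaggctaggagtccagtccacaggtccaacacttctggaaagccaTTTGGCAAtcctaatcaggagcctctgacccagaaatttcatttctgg
Scarb1: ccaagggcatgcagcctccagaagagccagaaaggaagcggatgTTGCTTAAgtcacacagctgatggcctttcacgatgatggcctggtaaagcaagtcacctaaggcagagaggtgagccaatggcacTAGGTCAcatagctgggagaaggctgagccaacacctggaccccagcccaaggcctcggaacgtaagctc
Zmiz1: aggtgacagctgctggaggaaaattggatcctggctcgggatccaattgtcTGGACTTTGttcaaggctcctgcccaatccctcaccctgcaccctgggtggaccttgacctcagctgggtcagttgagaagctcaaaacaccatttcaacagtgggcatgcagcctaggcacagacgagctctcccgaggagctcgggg
Rab11fip4: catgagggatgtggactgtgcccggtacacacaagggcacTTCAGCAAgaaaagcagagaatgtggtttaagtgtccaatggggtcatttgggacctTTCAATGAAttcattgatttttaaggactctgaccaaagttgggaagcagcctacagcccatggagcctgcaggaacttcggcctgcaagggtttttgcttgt

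Among the largest clusters were those at Shb, Gpam, Insr and Scarb1. A cluster is named here by the protein-coding gene whose transcription start site (TSS) was nearest to most of its peaks, which does not show that the sites act on that gene. The largest held 15 peaks over 84.1 kb (chr4:45447242-45531534) and lay wholly in Shb, which encodes an adaptor of tyrosine kinase signalling. Of its peaks 6 had both partners, 1 had HDAC3 only and 8 had neither, and the 6 peaks farthest from the first had no partner. Insr, the insulin receptor gene, held 13 peaks over 52.6 kb inside its own body, of which 1 had both partners and 9 had neither. The cluster nearest to Ptpn1, whose phosphatase switches off the insulin receptor, held 12 peaks in 43.4 kb. They lay upstream of the TSS, the nearest at -65310 bp, and 4 had both partners.

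Gpam, which encodes the first enzyme of triglyceride synthesis, had 14 peaks over 61.2 kb, 7 within the gene and the others outside it, and 9 of the 14 had neither partner. A cluster of 14 peaks over 68.3 kb ran through Tgoln1, Elmod3, Retsat and Tcf7l1, with HDAC3 at 10 peaks and SMRT at 6. Scarb1, the hepatic receptor for high-density lipoprotein, carried 11 peaks in 50.9 kb of its body, with HDAC3 at 10 and SMRT at 8. The peak closest to the Scarb1 TSS, 3894 bp into the gene, was the only member of that cluster without a partner.

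Zmiz1, which encodes a transcriptional coregulator, was the gene nearest to the most clustered peaks (24 in a pair of clusters of 12 each). SMRT was at 8 of 12 peaks in the first of these and at 5 of 12 in the second, and HDAC3 was at 7 of 12 in each. The cluster named after the clock gene Bhlhe40 lay inside Itpr1, with its nearest peak at -173805 bp from the Bhlhe40 TSS, and had HDAC3 at 9 of 11 peaks. The cluster at Gstp3 spread over the related genes Gstp1, Gstp2 and Gstp3, where only uniquely placed reads were kept, and had SMRT at 2 and HDAC3 at 3 of 11 peaks. Of these peaks 5 were nearest to Gstp3 and the others to Gstp1, Gstp2 or Ndufv1. Further clusters of 11 or more peaks lay at Pgpep1 (13), Lgr4, Eif1a, Slc25a10, Pitpnm2 and Dlc1 (12 each) and at Cmip, Coq8a and Fam214a (11 each). Of these, Lgr4 had the fewest peaks with HDAC3 (3 of 12) and Cmip and Coq8a the most (8 of 11 each).

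**Figure D2:**
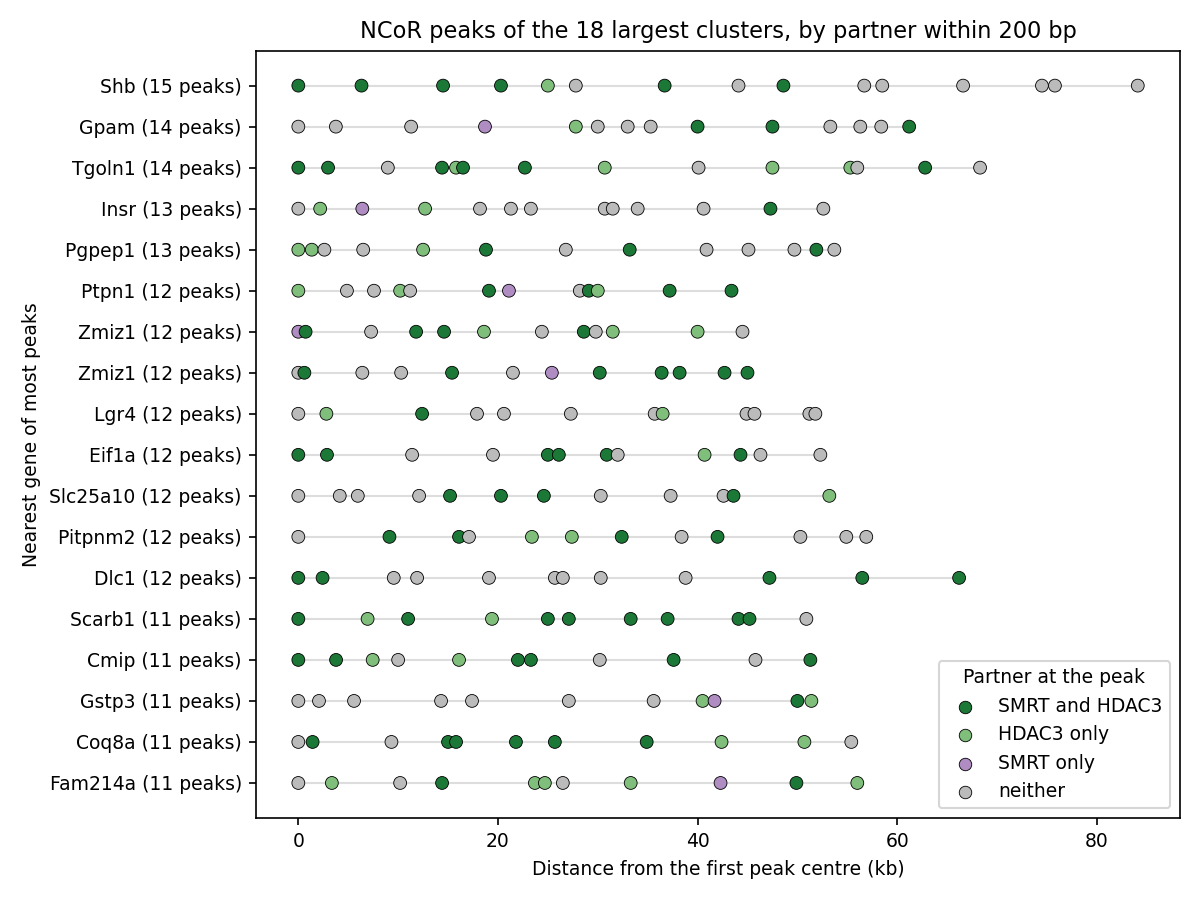
The 18 clusters with the most NCoR peaks. Each row is a cluster named by the nearest gene of most of its peaks, each point is an NCoR peak placed by its distance in kb from the first peak centre, and the colour gives the partner within 200 bp. Peaks with both partners and peaks with neither stand in the same rows, and the cluster at Scarb1 has 1 peak of 11 without a partner while those at Gpam, Insr and Lgr4 have 9 each.

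Clustered NCoR peaks carried SMRT and HDAC3 more often than other NCoR peaks. SMRT was at 1769 of 4860 clustered peaks (36.4%, exact 95% interval 35.0 to 37.8) and at 8432 of 30278 other peaks (27.8%, 27.3 to 28.4), beside 29.0% of all NCoR peaks. The odds ratio was 1.48 (1.38 to 1.59, adjusted p = 1.83e-25, logistic regression with standard errors robust to the chain). HDAC3 was at 2267 clustered peaks (46.6%, 45.2 to 48.1) and 11684 other peaks (38.6%), beside 39.7% of all (odds ratio 1.39, 1.30 to 1.49, adjusted p = 2.73e-20). Both partners were at 1537 clustered peaks, 31.6% against 23.8% of other peaks and 24.9% of all (odds ratio 1.48, adjusted p = 2.50e-23). Neither partner was at 2361 clustered peaks, 48.6% against 57.3% of other peaks and 56.1% of all (odds ratio 0.703, 0.656 to 0.753). That sites shared with SMRT and HDAC3 more often have close neighbours was known from earlier results of these lists, so this is not independent support for it.

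Peaks with a single partner gave smaller odds ratios. HDAC3 without SMRT was at 15.0% of clustered and 14.8% of other peaks (odds ratio 1.02, 0.933 to 1.11, adjusted p = 0.698). SMRT without HDAC3 was at 4.77% and 4.06% (odds ratio 1.18, 1.03 to 1.36, adjusted p = 0.0234), a call that was lost under 5 of the alternatives and turned under a sixth. With neighbours required within 5 kb, which left 67 clusters of 357 peaks, the odds ratios were 1.37 for SMRT and 1.21 for HDAC3 and no longer passed (adjusted p = 0.131 and 0.180).

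Partner shares rose with chain size up to 5 peaks and changed little from 5 to 9. SMRT was at 22.8% of isolated NCoR peaks, 30.4% of those in chains of 2, 32.8% in chains of 3, 34.1% in chains of 4 and 36.4% in chains of 5. It was at 37.1% in chains of 6, 34.4% in chains of 7 and 35.4% in chains of 8 to 9, with overlapping intervals. HDAC3 went from 33.0% of isolated peaks to 45.9% in chains of 4 and 46.2% in chains of 5. In the 30 clusters of 10 or more peaks, HDAC3 was at 55.6% (50.1 to 60.9) of 342 peaks and SMRT at 40.4% (35.1 to 45.8). These exact intervals treat peaks as independent, unlike those of the odds ratios, and may be too narrow for peaks that share a chain. Against chains of 2 to 4 alone, the odds ratios of clustered peaks were 1.23 for SMRT (adjusted p = 8.28e-07) and 1.16 for HDAC3 (adjusted p = 1.19e-04), and against isolated peaks they were 1.94 and 1.78.

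**Figure D3:**
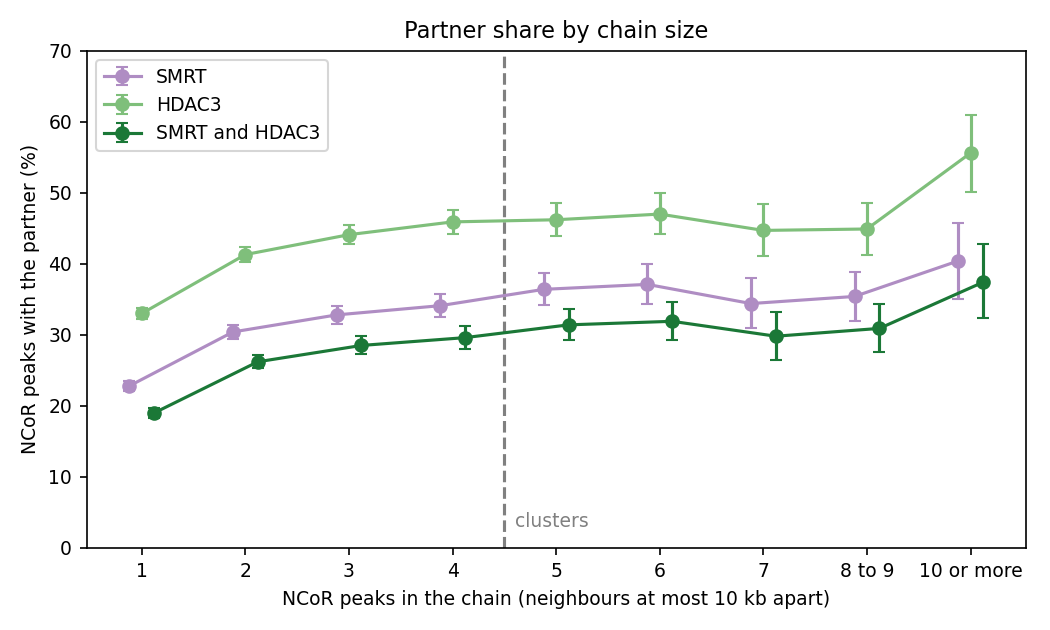
Share of NCoR peaks with a partner by the number of peaks in their chain. The horizontal axis gives the chain size, the vertical axis the percentage of peaks with SMRT, HDAC3 or both within 200 bp. The bars are exact 95% intervals that treat peaks as independent, and clusters are to the right of the dashed line. HDAC3 goes from 33.0% at isolated peaks to 46.2% in chains of 5 and 55.6% in clusters of 10 or more.

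Most clusters were mixed. In 731 of 791 (92.4%) some peaks had a partner and others had none. Since 48.6% of clustered peaks had no partner, most groups of 5 or more would be mixed even if partners ignored cluster borders. The counts of mixed and uniform clusters are therefore a description. A median of 2 peaks per cluster had SMRT, 3 had HDAC3 and 2 had both. No peak had SMRT in 85 clusters (10.7%) and none had HDAC3 in 44 (5.56%), while 244 clusters (30.8%) held at least 3 peaks with both. Every peak had both partners in only 3 clusters, of 5 peaks each, at Alpk2, Tsku and Qsox1. Apart from Scarb1, Zmiz1 and Shb, the clusters with the most such peaks were those at Rab11fip4, with both at 7 of 9 peaks and HDAC3 at all 9, and at Mgll, the gene of monoacylglycerol lipase, with both at 7 of 8 peaks and SMRT at all 8.

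At the other end, 27 clusters had no partner at any peak. The largest of them lay at Il1r1, an interleukin-1 receptor gene, with 7 peaks from -7256 to 18724 bp from the TSS. Next came Cfi, which encodes complement factor I, and Clip1 with 6 peaks each, and Hnrnpl and Klhl5 with 5 each. A partner at a neighbouring peak went with a partner at the peak itself: SMRT was at 43.9% of clustered peaks next to a neighbour with SMRT and at 32.5% next to one without, and HDAC3 was at 53.3% and 40.9%. These shares are a description, since each pair was counted from both sides.

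Peaks inside a cluster did not differ detectably from those at its ends when all clusters were taken. SMRT was at 37.2% of 3278 inner and 34.8% of 1582 end peaks (odds ratio 1.11, 0.982 to 1.25, adjusted p = 0.192), and HDAC3 at 46.8% and 46.3% (odds ratio 1.02, 0.902 to 1.15, adjusted p = 0.764). In clusters of 8 or more peaks alone, inner peaks carried each partner more often, with odds ratios of 1.41 for SMRT and 1.35 for HDAC3 (adjusted p = 0.0313 for each). Where a partner was present, its centre lay a median of 22 bp (SMRT) and 21 bp (HDAC3) from the NCoR centre in clusters, and 24 and 23 bp elsewhere.

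Clusters held 13.8% of all NCoR peaks. Seen from the partners, cluster spans held 1803 of 10654 SMRT peaks (16.9%, 16.2 to 17.6) and 2289 of 14462 HDAC3 peaks (15.8%, 15.2 to 16.4). Few of these lacked NCoR within 200 bp, namely 39 SMRT peaks (2.16%) and 30 HDAC3 peaks (1.31%), against 4.68% and 3.95% outside the spans. Because dense NCoR positions chose the spans, a lower share inside them is built into the rule and is only described. When the same chaining was applied to the partners' own lists, SMRT formed 43 clusters and HDAC3 84. Of these, 42 and 82 touched an NCoR cluster, which made up 5.31% and 10.4% of the NCoR clusters. Since few SMRT and HDAC3 peaks lack NCoR within 200 bp, such contact was largely set by the overlapping lists and is a description.

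Clustered peaks lay more often within gene bodies. A promoter was taken as the stretch from 1000 bp before to 100 bp after any annotated TSS, and peaks elsewhere were intragenic or intergenic. Intragenic peaks made up 63.2% of clustered and 56.2% of other peaks, beside 57.1% of all (odds ratio 1.34, 1.20 to 1.49, adjusted p = 3.21e-07), and intergenic peaks 25.7% and 30.7%, beside 30.0% of all (odds ratio 0.780, adjusted p = 1.27e-04). Promoter peaks made up 11.1% and 13.1%, beside 12.8% of all (odds ratio 0.826, 0.748 to 0.912, adjusted p = 1.65e-04), but with a promoter taken as 5 kb on either side of a TSS the odds ratio turned to 1.12 (adjusted p = 0.0110). All 3 location calls were lost with neighbours within 5 kb (adjusted p = 0.442). A promoter this short can hold few peaks of a cluster, since neighbouring NCoR peaks lay at least 400 bp apart. The lower promoter share was thus partly set by the rule that chose the members.

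The distance to the nearest protein-coding TSS, added after these results were seen, shows both sides of that change. Within 1 kb lay 11.2% of clustered and 14.4% of other peaks, whereas 33.5% and 21.6% lay at 1 to 10 kb. Beyond 50 kb lay 13.6% of clustered and 28.9% of other peaks. The medians were 11.89 and 20.01 kb. Because the peaks of a cluster must spread along the DNA, these distances depend partly on the rule and are a description. Of the clusters, 397 (50.2%) included a promoter peak, 224 (28.3%) lay wholly in the body of the gene that names them, 58 were wholly intergenic, and 566 had 1 nearest gene for all peaks.

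The excess of partners was present at each kind of location and was larger at promoters. Among promoter peaks, SMRT was at 30.2% of 539 clustered and 17.2% of 3972 other peaks (odds ratio 2.08, 1.69 to 2.57) and HDAC3 at 41.4% and 29.7% (odds ratio 1.67). Among intragenic peaks SMRT was at 35.5% and 28.3%, and among intergenic peaks at 41.3% and 31.6%. HDAC3 was at 45.4% and 39.0% of intragenic peaks (odds ratio 1.30) and at 52.0% and 41.6% of intergenic peaks (1.52, 1.33 to 1.73). The HDAC3 interval at intergenic peaks overlapped that at promoters (1.38 to 2.02). An interaction term, chosen after seeing these shares, gave odds ratios at promoters that were 1.47 times (1.18 to 1.83, adjusted p = 0.00117) those at other peaks for SMRT and 1.24 times (1.02 to 1.51, adjusted p = 0.0345) for HDAC3.

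Cluster density differed between chromosomes. Chromosome 19 had 5.67 clusters per 10 Mb of known bases, chromosome 5 had 5.41 and chromosome 11 had 5.14, against 1.73 on chromosome 14 and 0.550 on chromosome X. NCoR peaks of any kind were also unevenly spread, with 22.7 per Mb on chromosome 19, 15.7 on chromosome 5 and 20.1 on chromosome 11, against 10.6 on chromosome 14 and 3.55 on chromosome X. The share of NCoR peaks in clusters was 10.5% on chromosome X and 10.4% on chromosomes 12 and 14. Chromosome 5 held the most clusters, 80, with 20.9% of its NCoR peaks. The SMRT and HDAC3 shares were higher in clusters than at other peaks on 19 of the 20 chromosomes with a cluster. Chromosome X was the exception, with SMRT at 13.1% of its 61 clustered peaks and 18.8% of the others and HDAC3 at 26.2% and 29.0%.

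Sequence was then compared, by consensus strings searched on both strands of the 200-base windows. The strings were TTCNNNGAA for BCL6/STAT, CAAAGTCCA for the HNF4 half-site, TNAAGGTCA for ERR, TAGGTCA for the ROR/REV-ERB half-site, TGTTTAC for FOX, TATNGAT for HNF6/CUX2, TTNNGCAA for C/EBP and CCGGAAGT for ETS/ELK, with DR1 and CTCF as longer ones. ERR and ROR/REV-ERB strings, and DR1 and HNF4 strings, can overlap. A match describes letters in a window and does not show that a factor bound there. The commonest was C/EBP, in 19.3% of clustered and 19.1% of other windows, and 565 of 791 clusters (71.4%) held at least 1.

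No motif was more frequent in clustered than in other peaks, and 2 were less frequent (logistic regression, adjusted over 10 motifs). Of the 10, 3 passed an unadjusted p of 0.05, all less frequent, and Fisher's exact test also gave 0 more frequent and 2 less frequent. HNF6/CUX2, for the liver factor HNF6 and its relative CUX2, was in 7.28% of clustered and 8.59% of other windows (odds ratio 0.836, 0.743 to 0.940, adjusted p = 0.0158). ETS/ELK, common at promoters, was in 0.412% and 0.809% (odds ratio 0.507, adjusted p = 0.0158). With GC content in the model neither passed, HNF6/CUX2 at an odds ratio of 0.960 (adjusted p = 0.627) and ETS/ELK at 0.532 (0.335 to 0.843, adjusted p = 0.0723). Outside promoters ETS/ELK was at 0.801 (0.415 to 1.54, adjusted p = 0.577). Median GC was 49.5% in clustered and 48.0% in other windows. BCL6/STAT was in 7.33% and 7.03% (odds ratio 1.04, 0.927 to 1.18), FOX in 7.65% and 7.75% (0.987, 0.878 to 1.11), the HNF4 half-site in 2.43% and 2.04% (1.19, 0.978 to 1.45) and DR1 in 90 of 4860 and 453 of 30278 windows (1.24, 0.984 to 1.57).

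**Figure D4:**
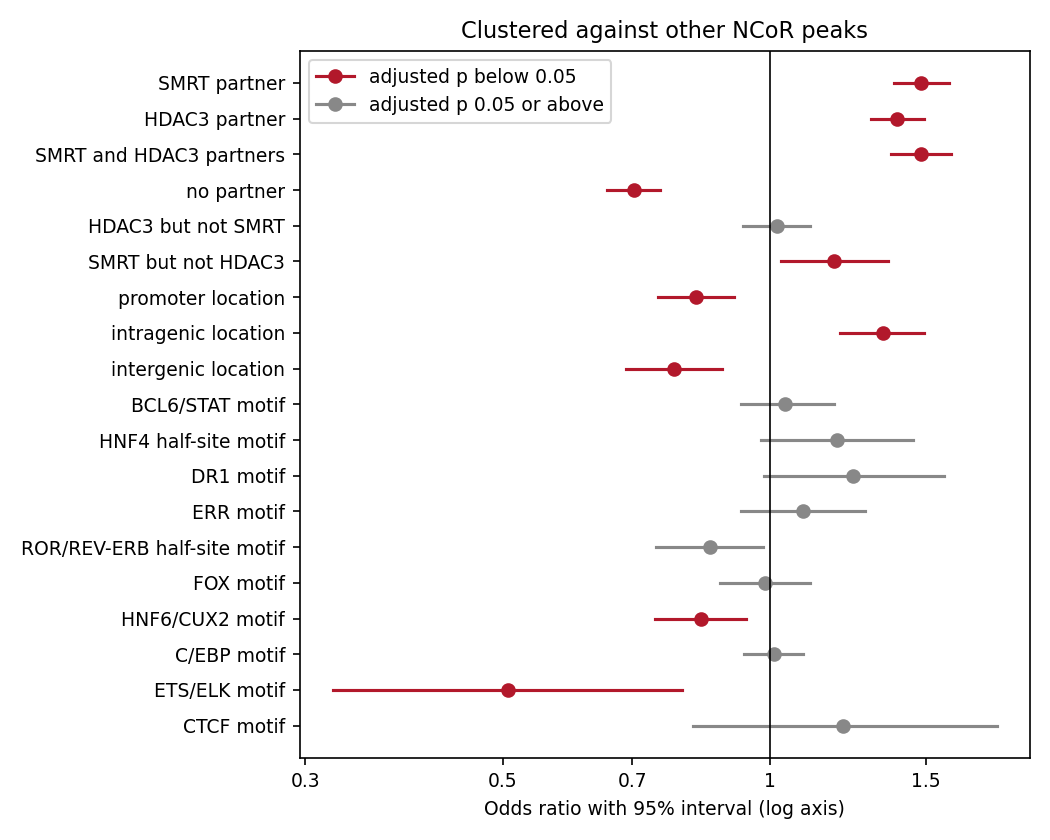
Odds ratios of clustered against other NCoR peaks. Rows are partner classes, locations and motifs, points are odds ratios on a log axis and bars are 95% intervals, red where the adjusted p was below 0.05. SMRT (1.48) and HDAC3 (1.39) lie above 1, and of the motifs only HNF6/CUX2 (0.836) and ETS/ELK (0.507) are drawn in red.

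Within clusters, the peaks with both partners differed in sequence from those with neither. This comparison was added after the other results were seen, and a difference of this kind between all such peaks was known from earlier results. Its model had no term for GC content or location, so the part of base composition in the difference was not tested. Of the 10 motifs, 3 were more frequent (adjusted p under 0.05) at the 1537 peaks with both partners than at the 2361 with neither, and 0 were less frequent. HNF6/CUX2 was in 9.89% and 5.34% (odds ratio 1.95, 1.53 to 2.48, adjusted p = 8.89e-07), FOX, for the forkhead factors that include FOXA2, in 10.4% and 6.27% (1.74, 1.37 to 2.21, adjusted p = 3.19e-05) and C/EBP in 21.8% and 17.9% (1.28, adjusted p = 0.00753). BCL6/STAT was in 7.61% and 7.29% (1.05, 0.823 to 1.34, adjusted p = 0.701). Outside clusters, HNF6/CUX2 was in 11.8% and 7.12%, FOX in 9.83% and 6.74% and C/EBP in 25.3% and 16.0% of peaks with both partners and with neither.

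The genes nearest to clustered peaks were counted against 17 gene lists. Of 21924 protein-coding genes, 1021 (4.66%) were nearest to at least 1 clustered peak. In 10 lists combined as hepatocyte functions, which took in nuclear receptor, clock and corepressor genes, 87 of 231 genes (37.7%) were. In 5 lists of markers of other liver cells, 3 of 60 genes were: Sox9 for cholangiocytes, and Eng and Lyve1 for endothelium, with none among 13 Kupffer cell, 12 stellate cell and 13 lymphocyte markers. None of 28 genes of cytosolic ribosomal proteins was. Both groups of lists were combined after the first results were seen, and immediate early and stress genes (6 of 27, 22.2%) were in neither. A gene with more NCoR peaks around it has more chances to meet the rule: the hepatocyte genes had a median of 5 NCoR peaks, the markers of other cells 1 and all protein-coding genes 0. The stretch nearest to a gene had medians of 61.1, 64.9 and 47.1 kb. Among genes with 5 or more NCoR peaks, a comparison added after these counts, 66 of 126 hepatocyte genes (52.4%) and 708 of all 2305 (30.7%) had a clustered peak, as had 3 of 9 marker genes of other cells. By hepatocyte list, this share ran from 38.5% (5 of 13 nuclear receptor genes) to 70.0% (7 of 10 clock and 7 of 10 fat oxidation genes). The lists were not tested.

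**Figure D5:**
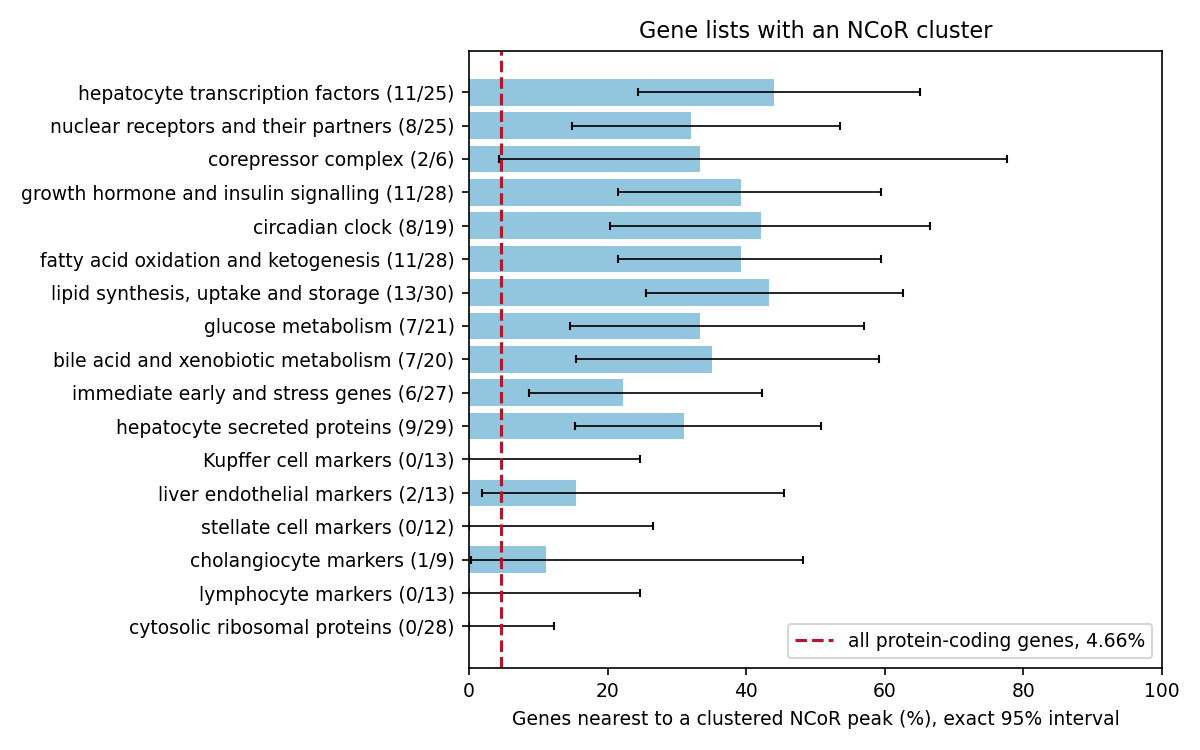
Share of the genes in each list that were nearest to a clustered NCoR peak. Bars give the percentage of genes, lines the exact 95% interval, the numbers in brackets the genes with a clustered peak and the genes in the list, and the dashed line the share among all protein-coding genes. Hepatocyte transcription factors reach 44.0% and the lists of Kupffer, stellate and lymphocyte markers and ribosomal proteins are at 0.

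Among transcription factors of hepatocytes, 11 of 25 genes (44.0%) had clustered peaks. Foxa2, a pioneer factor that opens chromatin, was nearest to 11 such peaks, of which 5 had both partners. Cebpa, which drives hepatocyte differentiation, had 10, in a cluster with SMRT at 4 and HDAC3 at 3. Bcl6 itself had 9, all upstream with the nearest at -68390 bp from its TSS, with SMRT at 4, HDAC3 at 4 and both at 2. Onecut1, the gene of HNF6, had 8, and Hnf4a, a nuclear receptor central to hepatocyte identity, had 6, of which none had both partners.

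Of 25 genes of nuclear receptors and their partners, 8 (32.0%) had clustered peaks. Ppara, the fatty acid sensor that turns on fat oxidation in fasting, had 11, with SMRT at 8, HDAC3 at 8 and both at 7. Nr2f2, an orphan receptor gene, had 6 with both at 5, whereas Thrb, the hepatic thyroid hormone receptor, had 7 with both at 1. Nr0b2, which encodes the repressor SHP, had 4, each with HDAC3. Tbl1xr1, which encodes a subunit of the corepressor complex, had 12 with both at 7.

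Growth hormone and insulin signalling had 11 of 28 genes (39.3%). Beside Insr and Ptpn1, Irs2, which relays the insulin signal, had 12 clustered peaks with both partners at 5. Igf1, the growth hormone target made by the liver, had 8 with both at 2, and Socs2, a feedback inhibitor of growth hormone signalling, had 8 with both at 5. Stat5b, the main growth hormone effector in liver, had 8 with HDAC3 at 6. Of 19 clock genes, 8 (42.1%) had clustered peaks. Hlf and Rora had 9 each, while Per2, a negative limb component of the clock, had 7 with SMRT at 2 and HDAC3 at 0.

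Fat oxidation and ketogenesis had 11 of 28 genes (39.3%). Acot1, an acyl-CoA thioesterase, had 6, all with HDAC3 and 4 with SMRT, next to Acot4 with 3 and Acot3 with 2 in the same array of related genes. Cpt1a, which admits fatty acids to mitochondria, had 5, of which 4 had both. Lipid synthesis, uptake and storage had 13 of 30 genes (43.3%). Elovl6, a fatty acid elongase, had 12 with HDAC3 at 8 and SMRT at 4. Mlxipl, which encodes the carbohydrate sensor ChREBP, had 6 within its body, of which 5 had both. Dgat2, the last step of triglyceride synthesis, had 8 with both at 3.

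Glucose metabolism had 7 of 21 genes (33.3%), among them G6pc, which releases glucose from the liver, with 6 clustered peaks and both partners at 4, and Pcx, pyruvate carboxylase, with 8 and both at 4. Bile acid and xenobiotic metabolism had 7 of 20 (35.0%). Por, the electron donor of cytochrome P450 enzymes, had 8 with both at 5, and Cyp8b1, which sets the hydroxylation of bile acids, had 5, all with HDAC3 and 2 with SMRT. Secreted hepatocyte proteins had 9 of 29 (31.0%). Apoa1 had 15, in a pair of clusters that lay largely in the neighbouring gene Sik3, with both at 2, whereas nearby Apoa5 had 4, all with both. Alb had 8 with both at 3. Immediate early and stress genes had 6 of 27 (22.2%), led by Myc with 10 and both at 4, and Zfp36l1 with 9 and both at 2. Of the 20 with 5 or more NCoR peaks, 6 (30.0%) had a clustered peak, beside 30.7% of all such protein-coding genes.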

How the data were processed

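The authors aligned single-end reads to mm10 with Bowtie, keeping uniquely placed reads, and called peaks with HOMER and DESeq2 on 3 libraries per protein against input. The deposited lists give the chromosome, start and end of each peak as coordinates, 1 set per protein for the pooled libraries, with no score. Depth is not given in the sources used here.

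Peaks were annotated with GENCODE M21. The members and gene lists were chosen with earlier results of these data known. Each peak property was compared between clustered and other NCoR peaks by logistic regression (statsmodels 0.14.6, Python 3.11.15) with standard errors robust to the chain of the peak, two-sided Wald p and Benjamini-Hochberg adjustment within 6 partner classes, 3 locations, 10 motifs and 2 position tests. Shares have exact (Clopper-Pearson) 95% intervals, which treat peaks as independent. Chaining, regression and motif search were tested on simulated data. Named were the 20 largest clusters, the 5 with the most peaks that had both partners, the 5 largest without a partner, those nearest the thresholds, and the listed genes with the most clustered peaks, and some of these are not reported here. Alternatives changed the link distance, chain size, partner distance, promoter definition, comparison peaks, GC term, window and test.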

Additional observations from a re-analysis of the deposited data

How the results depend on the processing

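Of 125 recomputed values that answer a comparison, 92 gave the same call and direction, or a count within 1.5 times the main one. Links of 5 kb gave 67 clusters of 357 peaks and odds ratios of 1.37 for SMRT, 1.21 for HDAC3, 1.31 for both partners, 0.784 for neither, 0.935 for HDAC3 without SMRT (reversed) and 1.37 for SMRT without HDAC3, none of which passed. Locations at 5 kb links gave 1.11 (promoter, reversed), 1.15 (intragenic) and 0.796 (intergenic), which did not pass. Links of 20 kb gave 1742 clusters of 12989 peaks, chains of at least 4 gave 1594 of 8072 and chains of at least 8 gave 118 of 1080. HDAC3 without SMRT passed at 20 kb (1.1) and with chains of 4 (1.07), and was reversed against chains of 2 to 4 (0.967) and with the GC term (0.989). SMRT without HDAC3 lost its call at 20 kb (1.03), with partners within 100 bp (1.13), outside promoters (1.12) and against chains of 2 to 4 (1.13), and was reversed in chains of 8 or more (0.954). The promoter result reversed with promoters of 5 kb (1.12). Motifs less frequent numbered 1 in windows of 100 bp, 0 with the GC term and 1 outside promoters, and 1 was more frequent against isolated peaks (HNF4 half-site, 1.32). FOX reversed in windows of 100 bp and with the GC term (1.02 each), and C/EBP outside promoters (0.971) and against isolated peaks (0.997). Inner peaks passed in clusters of 8 or more (1.41 for SMRT, 1.35 for HDAC3). The cause of these changes was not tested. A stricter peak threshold could not be applied, as only positions are listed. No paired analysis was possible because the lists pool the libraries, and no library could be left out for the same reason. Without peak heights or read counts, weak and strong sites could not be told apart.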
